A study of Mus musculus with 2 samples.

Results

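The 30 genes described here comprise 18 enzymes of cholesterol synthesis, 5 enzymes of fatty acid synthesis, 5 genes of the sterol regulatory element-binding protein (SREBP) system that controls them, and 2 genes of sterol transport, Stard4 and Abca1. They were chosen by gene symbol from a fixed list, and all 30 were found among the 17134 genes of the count table. The samples were tuft cells, rare chemosensory cells of the gut epithelium, sorted from the small intestine of naive mice as cells positive for EpCAM and Siglec-F and measured by RNA sequencing. There was 1 library from mice of the genotype labelled Spib+Villin-cre, called WT, and 1 from mice labelled Spibfl/flVillin-cre, called KO. Both carry Villin-cre, whose promoter is active throughout the intestinal epithelium, so that the deletion of floxed Spib is not limited to tuft cells. Spib encodes the ETS family transcription factor Spi-B. The labels give neither age, sex and strain background nor the number of mice in a library.

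Cholesterol is built from acetyl-CoA through mevalonate, farnesyl diphosphate, squalene and lanosterol. SREBPs are made as membrane proteins of the endoplasmic reticulum. When sterols are scarce, the escort protein SCAP carries them to the Golgi, where proteases release the part that enters the nucleus and activates these genes, and when sterols are plentiful, INSIG proteins hold SCAP and SREBP back. SREBP-2 mainly drives sterol synthesis and SREBP-1c mainly fatty acid synthesis. A separate system, the liver X receptors (LXRs), is activated by oxysterols and induces sterol export genes such as Abca1 as well as Srebf1.

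Gene-assigned reads numbered 17925448 in WT and 17228684 in KO. Spib had 348 CPM (counts per 1000000 reads of the scaled library) in WT and 2.80 CPM in KO. The sort markers Epcam (1721 and 1653 CPM) and Siglecf (953 and 1048 CPM) were high in both. With 1 library per genotype there was no replicate and no test, so each difference below describes these libraries, and its 95% interval covers counting error only. All 23 genes of a tuft cell list, Spib and Siglecf among them, were detected in both libraries, with a summed level of 23293 CPM in WT and 22281 CPM in KO, led by Sh2d6 at 4693 and 5096 CPM. Transcripts typical of other epithelial cells were also present. A list of 22 enterocyte genes summed to 20889 CPM in WT and 22184 CPM in KO, with none at 0, and 17 of the 22 had a ratio below 0 (median log2 ratio -0.39), while its most abundant gene, Fabp1, had 6968 and 10611 CPM. The 11 Paneth cell genes summed to 2628 and 1006 CPM, the 10 goblet cell genes to 2277 and 1407 CPM, the 9 stem and progenitor genes to 1465 and 1247 CPM and the 12 enteroendocrine genes to 553 and 735 CPM. Of the measured genes, 9 of 11 of the Paneth list and 8 of 9 of the goblet list had a ratio below 0. So did 6 of 9 of the enteroendocrine list (median -2.35), of which 5 were called lower and 2 higher by the rule given below, while Sct, its most abundant gene, had 404 and 533 CPM. Retnlb of the goblet list was at 0 in WT, and Gcg, Ghrl and Tph1 of the enteroendocrine list were at 0 in KO. Lists of immune cells were low, with 55.8 and 7.34 CPM for T cells and intraepithelial lymphocytes (Cd3d at 0 in KO), 31.7 and 22.2 CPM for myeloid cells (Csf1r and C1qa at 0 in KO), 5.83 and 2.39 CPM for B cells (Cd79a at 0 in KO) and 4.06 and 0.17 CPM for eosinophils and mast cells (Ccr3 and Tpsb2 at 0 in WT, Cpa3, Mcpt1 and Prg2 at 0 in KO). Stromal and endothelial genes summed to 4.0 and 3.32 CPM, with Kdr at 0 in WT. The part of these cells in the differences below was not tested.

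In the KO library most enzymes of the sterol branch had somewhat more transcript than in WT, the measured fatty acid enzymes among the members had slightly less, and the cholesterol exporter gene Abca1 was much lower. Of the 18 sterol synthesis enzymes, 14 had a log2 ratio of KO over WT above 0 and 4 below, and the median was 0.32. All 4 fatty acid synthesis enzymes that passed the level minimum had a ratio below 0, with a median of -0.22. The INSIG genes had the highest ratios of all members, 0.96 for Insig2 and 0.73 for Insig1, whereas Srebf1 had -0.59 and Srebf2 -0.25. Abca1 fell 6.19-fold. In bulk samples such as these, fewer cells of a type and less RNA per cell cannot be told apart.

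These shifts were small by the size rule used. A gene counted as measured when either library gave it at least 5 CPM and 30 reads, which held for 29 members and 10707 genes in all. It was called if the bound of its interval nearest 0 lay at least 1 from 0 on the log2 scale, a 2-fold difference. No member was called higher, against 2.33% of all measured genes, and 1 was called lower, Abca1, against 2.18%. By the point estimate alone, 4 members were at least 1.5-fold higher and 2 at least 1.5-fold lower (10.7% and 9.8% of all measured genes). At least 1.2-fold, the counts were 13 higher and 2 lower, or 44.8% and 6.90% of the measured members, against 26.1% and 24.7% of all measured genes. Within the sterol enzymes 11 of 18 (61.1%) were at least 1.2-fold higher and 0 were at least 1.2-fold lower. The median ratio was 0.16 over the 29 measured members and 0.01 over all measured genes, of which 51.2% had a ratio above 0.

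**Figure D1:**
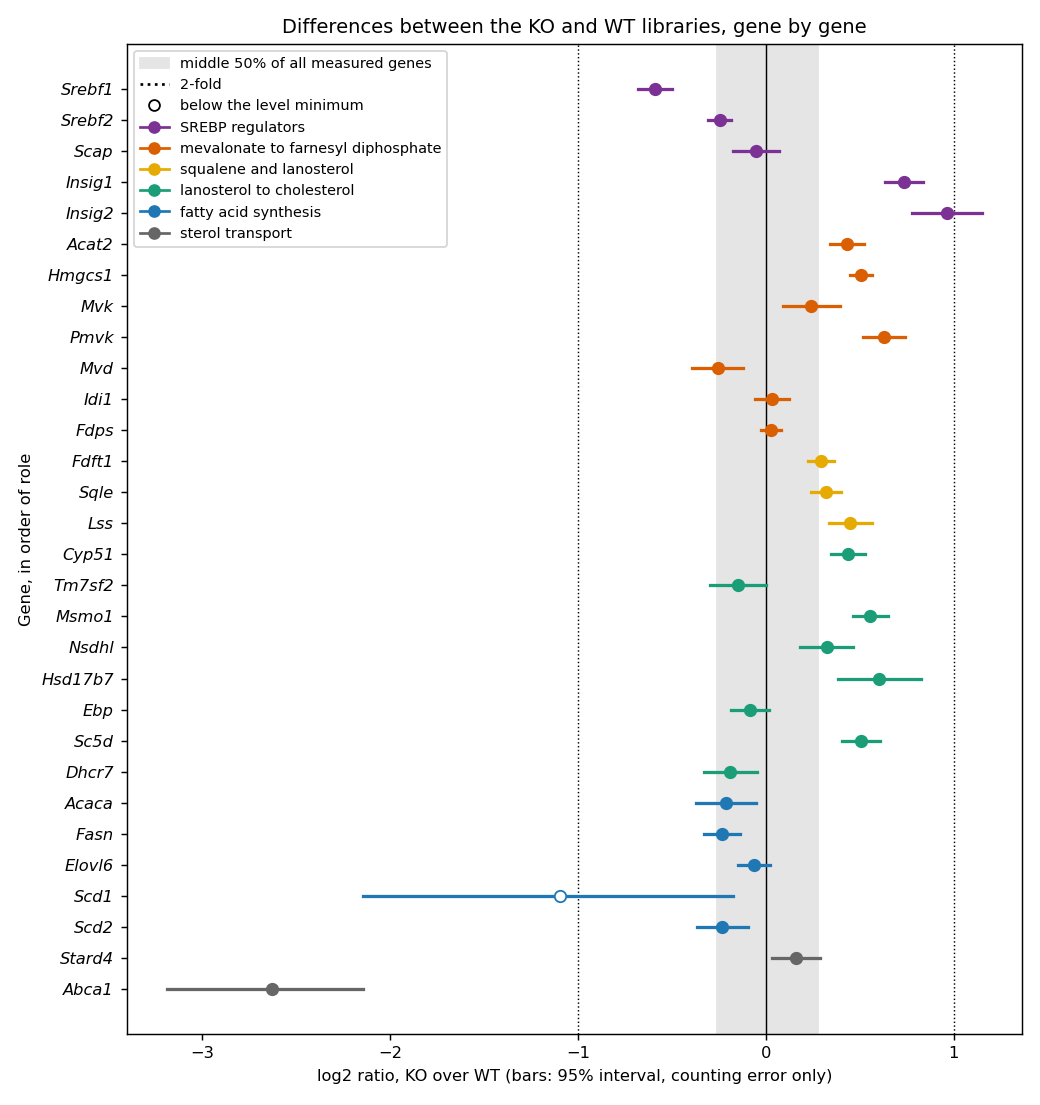
Log2 ratio of KO over WT (x axis) for each of the 30 genes (y axis, in order of role), with bars for the 95% counting interval, a grey band from -0.26 to 0.28 for the middle 50% of all measured genes and dotted lines at 2-fold. Most sterol enzymes lie to the right of 0, the fatty acid enzymes to its left, and Abca1 stands apart at -2.63.

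Because most sterol enzymes lay on the same side of 0, the members' promoters were searched for elements of SREBPs and of factors they act with. Elements of the LXRs, which induce Abca1, were not searched for. SREBPs bind weakly on their own and are known to act with NF-Y, which binds CCAAT boxes, and with Sp1, which binds GC boxes. RefSeq promoter windows (build GRCm38.p6, from 250 bases before to 50 after an annotated start) matched 24 of the 30 genes, 5 of them with more than 1 window. The stretches below are the 250 bases upstream of the start for Hmgcs1 (chr13:119690101-119690350, plus strand), which encodes HMG-CoA synthase, Msmo1 (chr8:64733579-64733828, minus strand), a late enzyme with 3 CCAAT boxes, Insig1 (chr5:28071162-28071411, plus strand), the feedback gene with a high ratio, and Abca1 (chr4:53159896-53160145, minus strand), the gene that fell. Each is written 5′ to 3′ on the strand of the gene, and capitals mark CCAAT on either strand and, in Hmgcs1, the sterol regulatory element core.
Hmgcs1: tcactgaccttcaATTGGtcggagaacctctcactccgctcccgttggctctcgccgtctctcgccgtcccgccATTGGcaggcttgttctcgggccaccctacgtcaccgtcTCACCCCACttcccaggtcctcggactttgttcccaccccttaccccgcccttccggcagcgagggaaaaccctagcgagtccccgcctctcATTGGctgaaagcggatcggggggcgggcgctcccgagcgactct
Msmo1: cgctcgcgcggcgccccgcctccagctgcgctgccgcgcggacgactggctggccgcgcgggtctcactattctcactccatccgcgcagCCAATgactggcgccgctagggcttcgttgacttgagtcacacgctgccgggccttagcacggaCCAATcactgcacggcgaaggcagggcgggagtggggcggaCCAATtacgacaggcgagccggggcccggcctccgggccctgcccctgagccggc
Insig1: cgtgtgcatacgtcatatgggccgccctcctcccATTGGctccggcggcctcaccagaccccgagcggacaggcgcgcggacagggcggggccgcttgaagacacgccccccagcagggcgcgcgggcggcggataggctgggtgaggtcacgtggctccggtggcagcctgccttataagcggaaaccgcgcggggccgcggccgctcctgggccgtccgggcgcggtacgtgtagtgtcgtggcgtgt
Abca1: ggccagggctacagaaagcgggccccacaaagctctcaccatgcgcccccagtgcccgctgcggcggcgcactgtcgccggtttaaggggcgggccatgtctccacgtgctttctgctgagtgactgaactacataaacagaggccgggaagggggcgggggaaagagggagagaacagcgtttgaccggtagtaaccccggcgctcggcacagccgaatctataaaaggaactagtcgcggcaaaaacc

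The letters CCAAT were found on either strand in 19 of the 24 members with a window (79.2%), against 43.8% of the 8702 measured genes with a window and 43.0% of the 13622 genes of the table with one. With only the first listed window of each gene, the shares were 75% and 39.7%. Of the 42 matches in the members, 37 lay within 200 bases upstream of a start, 29 read ATTGG on the gene's strand, and a pair in Fasn overlaps. Mvk had 5, and Hmgcs1 and Nsdhl had 4 each. The GC box GGGCGG was found in 20 of 24 (83.3%), against 68.6% of measured genes. The sterol regulatory element core TCACNCCAC was found in Hmgcs1 only among the 24, beginning 137 bases upstream of its start, and in 1.44% of measured genes. Only this spelling was searched for, so a sterol regulatory element spelled otherwise was not counted. The letters GAGGAAGT, a form of the PU box that Spi-B and its relatives bind, were found in Acat2, Elovl6 and Scap, 3 of 24 (12.5%), against 3.49%. No other overlap between motifs was counted. The members without CCAAT in a window were Scap, Acat2, Acaca, Elovl6 and Abca1, of which only Acat2 is a sterol synthesis enzyme. Of these, 1, Acat2, had a ratio above 0, while 12 of the 19 members with CCAAT did (medians -0.06 and 0.32). Over all measured genes, 51.2% had a ratio above 0. Ratios of other genes with and without CCAAT were not compared, and a link between motif and ratio was not tested. The motif counts are letter matches in the annotated windows, with no measurement of binding. Median GC content was 59.8% in the members' windows and 60.7% over measured genes.

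**Figure D2:**
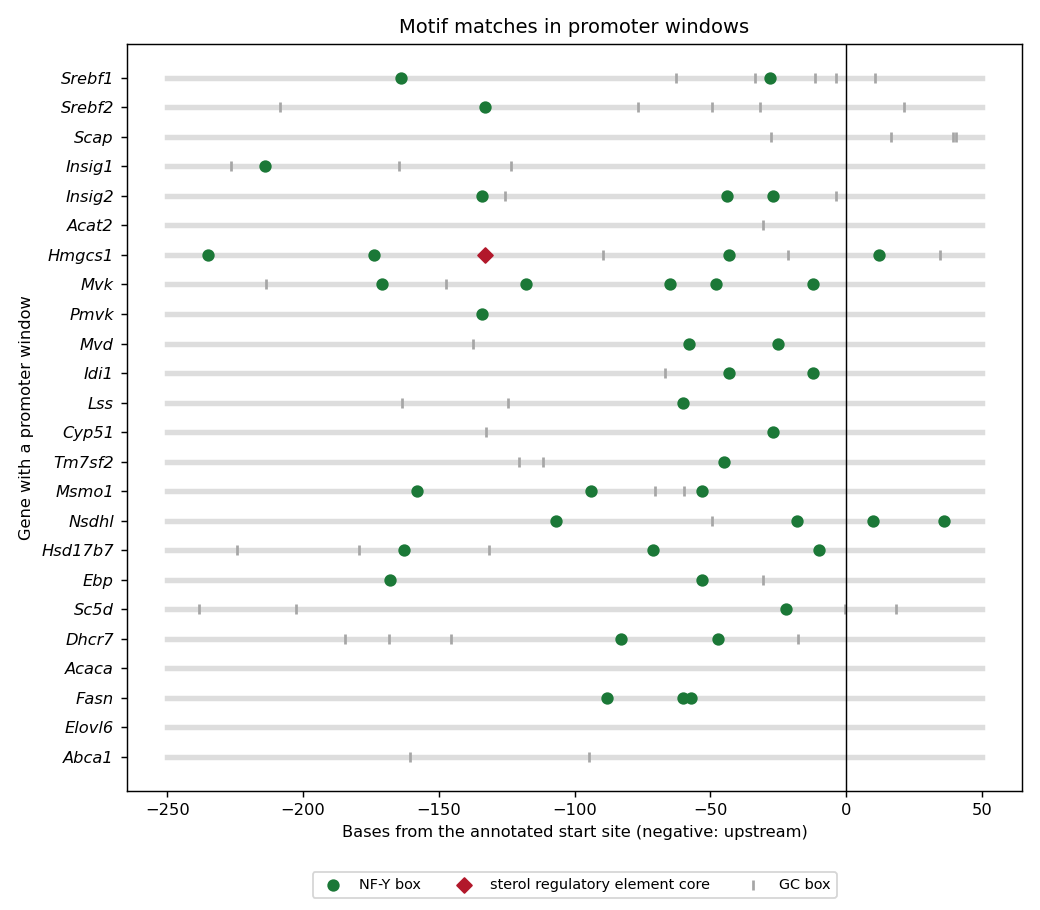
Matches to the NF-Y box (green circles), the sterol regulatory element core (red diamond) and the GC box (grey ticks) by distance in bases from the annotated start (x axis) for the 24 genes with a promoter window (y axis), with the windows of a gene laid over each other. NF-Y boxes are seen in 19 of 24 genes, mostly upstream of the start.

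Levels per length are given as deposited TPM of the whole libraries, which also held transcripts of other cells. The 18 sterol enzymes summed to 1246 TPM in WT and 1430 TPM in KO, and the 5 fatty acid enzymes to 63.4 and 56.3 TPM. Fdps, which encodes farnesyl diphosphate synthase, was the highest member in both libraries at 394 and 393 TPM, above 96.1% of measured genes in WT. Pmvk followed with 83.7 and 127 TPM and Hmgcs1 with 81.8 and 116 TPM. Then came a group within a narrow range in WT, from Fdft1 at 79.2 TPM through Ebp, Srebf2, Msmo1 and Acat2 to Sqle at 62.7 TPM. Msmo1 ranked 7 in WT and 4 in KO, and Srebf2 6 and 11. Scd1 was the lowest in both libraries at 0.49 and 0.22 TPM, followed by Abca1 at 1.69 and 0.27 TPM, and next came Hsd17b7 in WT at 4.73 TPM and Acaca in KO at 4.32 TPM. There is no spread between samples from which to say which neighbours in this order differ.

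**Figure D3:**
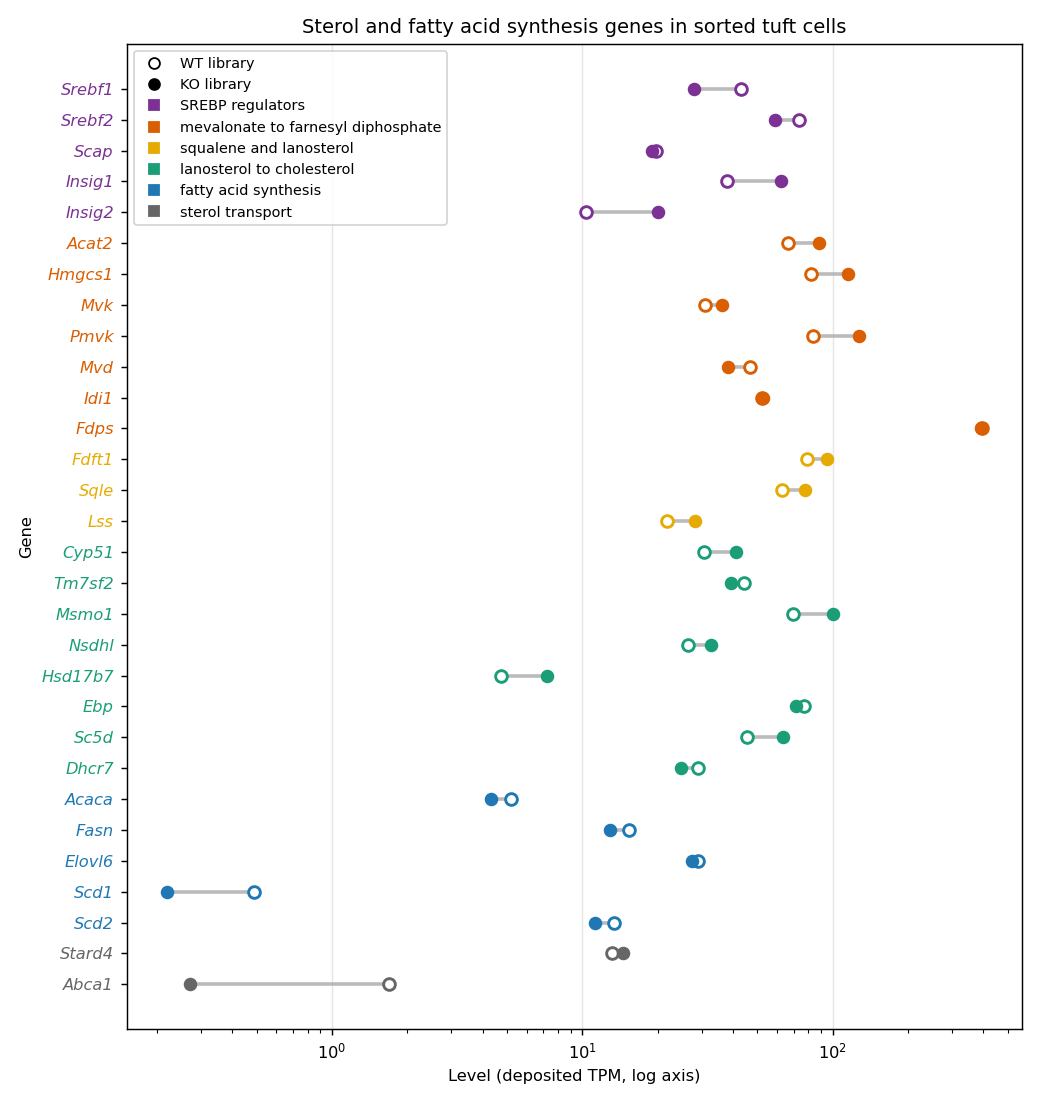
Deposited TPM (x axis, log scale) of the 30 genes (y axis, coloured by role) in the WT library (open circles) and the KO library (filled circles), joined by a line. Fdps is highest at 394 and 393 TPM, and Abca1 and Scd1 are the only genes below 2 TPM.

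Among the regulators, the INSIG genes and the SREBF genes lay on opposite sides of 0. Insig1 (chromosome 5, 28071412 to 28078662) had 73.1 CPM in WT (95% Poisson interval 69.2 to 77.1) and 122 CPM in KO (116 to 127), a log2 ratio of 0.73 (0.63 to 0.83), and 7.24% of measured genes had a higher ratio. Insig2 (chromosome 1, 121304353 to 121332662) had 20.6 CPM (18.6 to 22.8) and 40.2 CPM (37.3 to 43.3), or 371 and 690 reads. Its log2 ratio of 0.96 (0.78 to 1.15) was exceeded by 4.24% of measured genes. The intervals of the libraries do not overlap for either gene, and the share of measured genes with this trait was not counted. Both ratio intervals lie above 0. A ratio interval that excludes 0 was common, since 35.04% of all measured genes had one above 0 and 33.84% one below 0. Insig1 and Insig2 encode the anchors that retain SCAP in the endoplasmic reticulum, and Insig1 is itself a target of SREBP. At a bound of 1.5-fold instead of 2-fold these 2 genes are the members called higher, where the share of all measured genes is 5.59%, and Abca1 is the member called lower, where it is 5.51%. Per length, Insig1 was 3.68 times Insig2 in WT and 3.11 times in KO.

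Srebf1 (chromosome 11, 60199084 to 60224186), which encodes SREBP-1, had 140 CPM in WT (134 to 145) and 92.9 CPM in KO (88.4 to 97.6). Its log2 ratio was -0.59 (-0.68 to -0.50), and 9.65% of measured genes had a lower one. The counts do not separate its SREBP-1a and SREBP-1c transcripts, and 1.93% of its exon bases overlap Rai1 on the opposite strand, which had 15.1 and 19.4 CPM. Srebf2, which encodes SREBP-2, had 266 CPM and 224 CPM, a log2 ratio of -0.25 (-0.31 to -0.18). Srebf2 was thus 1.71 times Srebf1 per length in WT and 2.11 times in KO. Scap, the sterol-sensing escort, had 62.2 and 60.0 CPM, a ratio of -0.05 with an interval (-0.18 to 0.07) that includes 0. Neither SREBF gene passed the 2-fold rule.

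The first part of the sterol branch runs from acetyl-CoA to farnesyl diphosphate. Acat2, the cytosolic thiolase that joins acetyl-CoA units, had 97.2 CPM in WT and 131 CPM in KO, a log2 ratio of 0.43 (0.34 to 0.53). Hmgcs1 (chromosome 13, 119690351 to 119708260), the synthase of the HMG-CoA step whose promoter is shown above, had 213 CPM (206 to 220) and 302 CPM (294 to 311), a ratio of 0.51 (0.45 to 0.57). Pmvk, phosphomevalonate kinase, had 63.6 and 98.3 CPM, and its ratio of 0.63 (0.52 to 0.74) was the highest of the 18 enzymes. The other 4 enzymes of this stretch had ratios closer to 0. Mevalonate kinase, Mvk, which acts between Hmgcs1 and Pmvk, had 36.8 and 43.5 CPM, a ratio of 0.24 (0.09 to 0.40). Idi1, the isomerase of isopentenyl diphosphate, had 110 and 112 CPM, and Fdps, the most abundant member, had 323 and 329 CPM. Both had a ratio of 0.03, with intervals of -0.06 to 0.12 for Idi1 and -0.03 to 0.08 for Fdps, and in deposited TPM and FPKM the sign of Fdps is reversed. Exons of Fdps share 26.7% of their bases with Gm43738 on the same strand, and exons of Hmgcs1 share 12.1% with the antisense gene Gm48342, neither of them a gene of the table. Mvd, the decarboxylase between Pmvk and Idi1, was on the other side at 57.0 and 47.7 CPM, a ratio of -0.26 (-0.39 to -0.12).

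The enzymes that commit the pathway to sterols all had a ratio above 0. Fdft1, squalene synthase, had 178 CPM in WT and 219 CPM in KO, a log2 ratio of 0.29 (0.23 to 0.36). Its exons overlap those of Ctsb on the opposite strand over 18.3% of their bases, and Ctsb had 611 and 587 CPM, a ratio of -0.06. Sqle, squalene epoxidase, a control point of the pathway, had 126 and 157 CPM, a ratio of 0.32 (0.24 to 0.40). Lss, which closes the sterol rings to give lanosterol, had 62.4 and 85.3 CPM, a ratio of 0.45 (0.34 to 0.56). Their summed level was 164 TPM in WT and 200 TPM in KO.

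The 8 enzymes that turn lanosterol into cholesterol were split 5 to 3. Msmo1, which removes methyl groups at carbon 4 together with Nsdhl and Hsd17b7, had 89.2 CPM in WT (84.9 to 93.7) and 131 CPM in KO (126 to 137), a log2 ratio of 0.55 (0.46 to 0.65). Nsdhl had 41.8 and 52.3 CPM, a ratio of 0.32 (0.18 to 0.47), and Hsd17b7 had 15.9 and 24.2 CPM, a ratio of 0.60 (0.38 to 0.83). The 3 genes of this demethylation complex were thus on the same side. Cyp51, lanosterol demethylase, had 100 and 136 CPM, a ratio of 0.44 (0.35 to 0.53), and overlaps Akap9 over 3.76% of its exon bases. Sc5d, a desaturase of the last steps, had 76.6 and 109 CPM, a ratio of 0.51 (0.41 to 0.61). On the other side, Dhcr7, the reductase that completes cholesterol, had 50.4 and 44.2 CPM, a ratio of -0.19 (-0.33 to -0.05). Ebp, a sterol isomerase, had 92.8 and 87.6 CPM, and Tm7sf2, a sterol reductase, had 44.1 and 39.8 CPM. Their ratios were -0.08 (-0.18 to 0.02) and -0.15 (-0.30 to 0.00), and 12.1% of the exon bases of Tm7sf2 are shared with Vps51, which had 45.5 and 55.8 CPM.

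**Figure D4:**
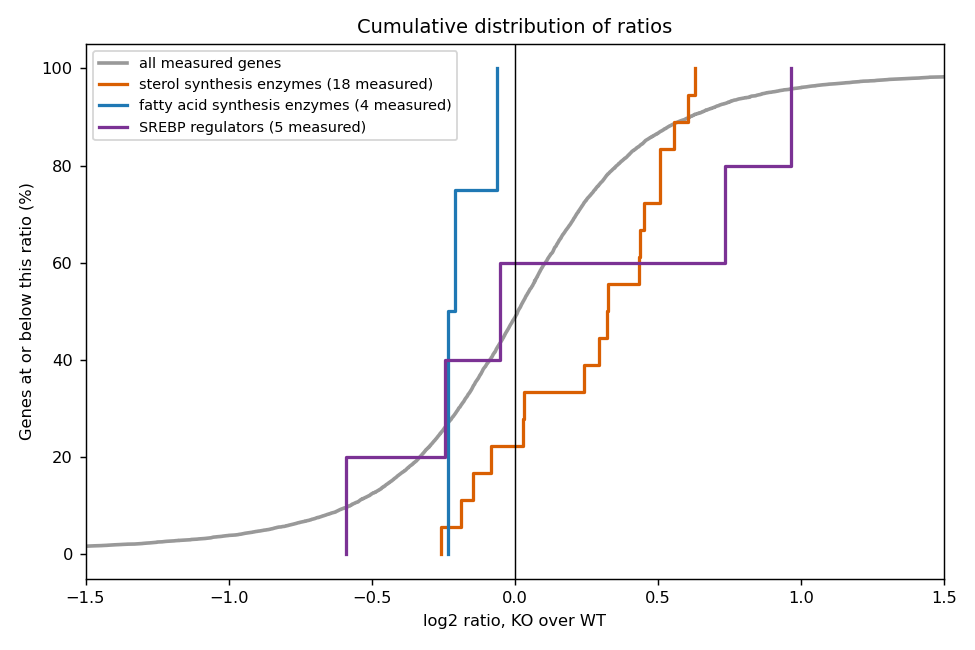
Share of genes at or below a given log2 ratio of KO over WT (x axis) for all 10707 measured genes (grey), the 18 sterol synthesis enzymes (orange), the 4 measured fatty acid synthesis enzymes (blue) and the 5 SREBP regulators (purple). The orange curve lies right of the grey one over most of its range, with a median of 0.32, and the blue one rises wholly left of 0.

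The 4 measured fatty acid enzymes among the members had ratios below 0, whereas 13 of 20 measured genes in a wider list of fatty acid synthesis, given further on, had ratios above 0. Acaca, acetyl-CoA carboxylase, which makes malonyl-CoA, had 39.2 CPM in WT and 33.9 CPM in KO, a log2 ratio of -0.21 (-0.37 to -0.05). Fasn, fatty acid synthase, had 113 and 95.7 CPM, a ratio of -0.23 (-0.33 to -0.14). Elovl6, which elongates palmitate, had 132 and 126 CPM, a ratio of -0.06 (-0.15 to 0.02). Scd2, a desaturase that makes monounsaturated fatty acids, had 55.5 and 47.2 CPM, a ratio of -0.23 (-0.37 to -0.10). All were within 1.2-fold. Its paralogue Scd1 was the only member below the level minimum, with 32 reads in WT and 14 in KO (1.78 and 0.82 CPM, log2 ratio -1.10, interval -2.14 to -0.18), so that Scd2 per length was 27.3 times Scd1 in WT and 51.3 times in KO. Scd1 and Scd2 are close relatives. Their counts are whole in both libraries, and how reads common to both were counted is not given in the sources used here. The difference in side between these enzymes and the sterol enzymes was not tested.

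Of the sterol transport genes, Abca1 was the 1 member called. Abca1 (gene 11303, chromosome 4, 53030789 to 53159988) encodes the transporter that exports cholesterol and phospholipid to apolipoprotein A-I. It had 243 reads in WT, or 13.5 CPM (11.9 to 15.3), and 37 reads in KO, or 2.16 CPM (1.52 to 2.97). It fell by 2.63 on the log2 scale (interval -3.19 to -2.14), a 6.19-fold difference (4.42 to 9.11), and 0.74% of measured genes had a lower ratio. The gene is of low abundance, above only 4.25% of measured genes by WT TPM, and no exon of another annotated gene overlaps its exons. Abca1 is also expressed by macrophages and other immune cells. The sums of their lists, given above, were lower in KO. Of the 3 measured genes of the myeloid list, 2 had a ratio below 0, and the list's median was -1.06. Lyz2, named after its values were seen, was called lower. The 1 with a ratio above 0 was Adgre1, a macrophage gene and the most abundant of the list. Adgre1 had 7.5 and 13.4 CPM, a ratio of 0.83 (0.52 to 1.15). The part of such cells in the Abca1 difference was not tested. Stard4, which carries sterols between membranes inside the cell and is a target of SREBP-2, had 53.2 and 59.4 CPM, a ratio of 0.16 (0.03 to 0.29).

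A further 119 genes of neighbouring lipid pathways, in 8 lists, were read by the same rule. Of 103 measured, 2 were called higher (Me1 and Lpin1) and 1 lower (Gpam), and the median ratio was 0.01, the same as over all measured genes. Lpin1 (chromosome 12, 16535669 to 16653903) encodes lipin-1, the phosphatidate phosphatase that supplies diacylglycerol. It had 518 reads in WT and 1795 in KO, or 28.8 and 105 CPM, and rose by 1.86 on the log2 scale (1.72 to 2.01), 3.63-fold. Me1 (chromosome 9, 86581363 to 86695914), malic enzyme, a source of NADPH for lipid synthesis, had 10.6 and 32.5 CPM and rose 3.07-fold (log2 ratio 1.62, interval 1.38 to 1.87). Gpam (chromosome 19, 55067635 to 55127319), the mitochondrial acyltransferase that starts glycerolipid synthesis, had 310 and 62 reads, or 17.2 and 3.61 CPM, and fell 4.74-fold (3.62 to 6.37). No gene of the table overlaps the exons of these 3. Me1, Lpin1 and Gpam are all known to respond to SREBP in other tissues, and here Me1 and Lpin1 were higher and Gpam lower.

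By list, the 13 measured genes of SREBP processing and sterol sensing had 0 calls and a median log2 ratio of 0.18, with Mbtps1, the first protease that cuts SREBP, at 102 and 116 CPM and the vesicle coat gene Sec23a at 136 and 130 CPM. Rnf145, a ubiquitin ligase of the sterol-sensing machinery, had 60.4 and 34.3 CPM, a ratio of -0.82 (-0.97 to -0.67). The 7 other sterol synthesis genes had 0 calls and a median of 0.06, led by Acat1 at 223 and 204 CPM and Pgrmc1 at 162 and 169 CPM. Of the 20 measured genes of the list of other fatty acid synthesis, 13 had a ratio above 0 and 7 below, with a median of 0.07, and Me1 was the gene called. Acacb, another acetyl-CoA carboxylase, had 150 and 218.0 CPM, a ratio of 0.54 (0.47 to 0.61). Fads1, a desaturase of polyunsaturated fatty acids, had 58.4 and 29.1 CPM, a ratio of -1.0 (-1.16 to -0.85), and Acss2, an acetyl-CoA synthetase, 74.5 and 115 CPM, a ratio of 0.63 (0.52 to 0.73). Of the 14 measured genes of fatty acid activation and glycerolipid synthesis, 8 were at least 1.2-fold lower and 3 at least 1.2-fold higher. These are 57.1% and 21.4%, against 24.7% and 26.1% of all measured genes, and the list's median was -0.32. The ratios of Dgat2, an acyltransferase that forms triglyceride, and Acsl3, an acyl-CoA synthetase, were -0.90 and -1.28. Among the 19 measured genes of sterol uptake, storage and transfer, 0 were called and the median was 0.01. Among them Npc1l1, the intestinal cholesterol importer typical of enterocytes, had 181 and 132 CPM, a ratio of -0.45 (-0.53 to -0.38), and the lysosomal sterol carrier gene Npc2 had 108 and 109 CPM. The 15 genes of non-sterol branches of the mevalonate pathway had 0 calls and a median of 0.03, with Pdss1 at 70.2 and 59.4 CPM and Rabggta at 46.9 and 67.8 CPM. The 5 oxysterol and bile acid enzymes had 0 calls and a median of -0.13, with Hsd3b7 at 85.8 and 92.0 CPM and Sult2b1 at 46.0 and 39.3 CPM.

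The list of LXR receptors and sterol efflux genes, the system to which Abca1 and Srebf1 belong, had 0 calls among 10 measured. Of the 10, 9 had a ratio below 0, against 48.8% of all measured genes, and the median was -0.18. The exception was the coactivator gene Ncoa1 at 66.8 and 69.8 CPM. Most of these differences were small. At least 1.2-fold lower were 3 of the 10 (30%, against 24.7% of all measured genes), and 0 were at least 1.2-fold higher (against 26.1%). Nr1h3, which encodes LXR-alpha, had 1287 and 729 reads, or 71.5 and 42.5 CPM, a log2 ratio of -0.75 (-0.88 to -0.62). Nr1h2, which encodes LXR-beta, had 172 and 149 CPM, a ratio of -0.21 (-0.28 to -0.13). Lpcat3, a phospholipid acyltransferase, had 251 and 231 CPM, and the sterol exporter pair Abcg5 and Abcg8 had ratios of -0.01 and -0.15. Abcg1, the closest functional partner of Abca1, was below the level minimum with 17 reads in WT and 1 in KO, a log2 ratio of -3.49 with a counting interval of -9.40 to -1.34. Rnf145, Acacb, Fads1, Acss2, Dgat2, Acsl3, Nr1h3, Ncoa1, Abcg5, Abcg8 and Abcg1 were named after their values were seen.

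**Figure D5:**
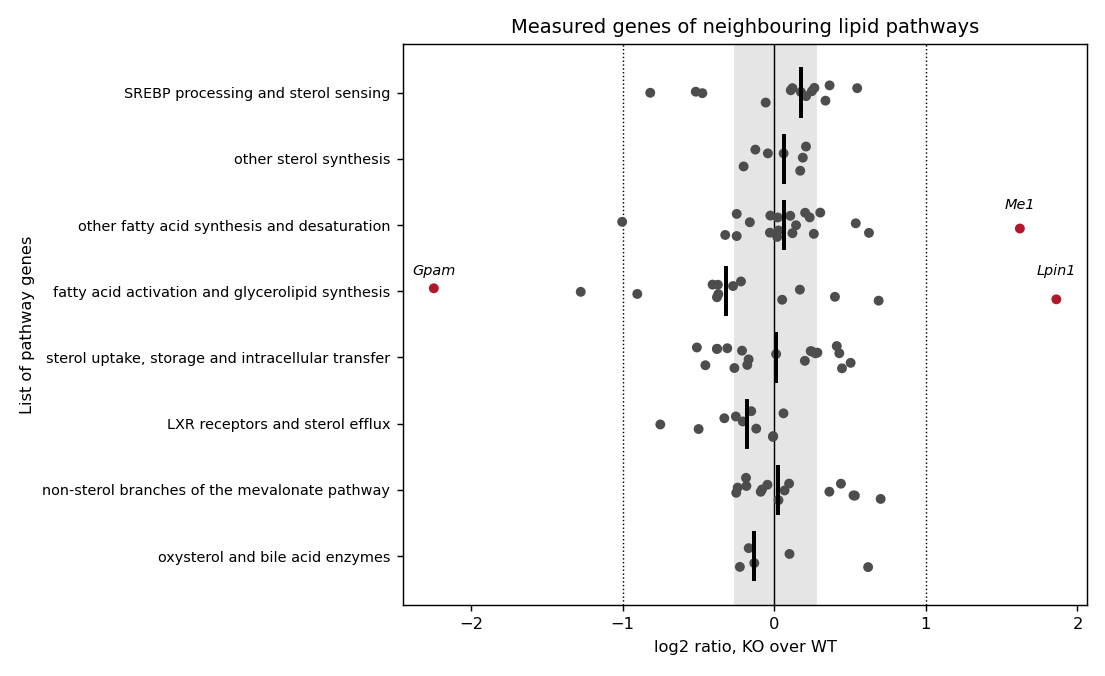
Log2 ratio of KO over WT (x axis) for each measured gene (points) of 8 neighbouring lipid pathway lists (y axis), with a black bar at each list's median, a grey band for the middle 50% of all measured genes and dotted lines at 2-fold. The 3 called genes are red and named, and 9 of the 10 points of the LXR list lie below 0, against 48.8% of all measured genes.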

How the data were processed

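Per the labels' protocols, TRIzol RNA of 2 sorted tuft cell populations, WT and KO, was amplified as cDNA in the manner of SMART-SeqII and tagged with a transposase, a kind of preparation that usually marks neither molecules nor strand. The submitters' processing notes name HISAT, Bowtie2 2.2.3 and mm10, and the counting step was not given in the sources used here. The deposited table holds, per the file headers, read counts, TPM and FPKM for 17134 genes. Of these deposited counts, 19.0% in WT and 18.6% in KO are not whole, including those of 3 members (Acat2, Idi1 and Fdft1), so these deposited values were treated as estimated counts and rounded.

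Library sizes were scaled with TMM factors (edgeR 4.0.16, R 4.3.3). Log2 ratios used a prior count of 0.5, with exact conditional binomial (Clopper-Pearson) 95% intervals. CPM intervals are exact Poisson. Intervals cover counting error only, since amplified reads are not independent molecules. With 1 library per genotype no test was made, and the size rule stands in its place. Deposited TPM compared levels between genes. Exon overlaps came from GENCODE M21 (mm10) and positions from RefSeq GRCm38.p6. Python 3.11.15, numpy 2.4.6, scipy 1.17.1, pandas 2.3.3 and matplotlib 3.10.9 were used. The procedure was tested on simulated Poisson counts, which hold counting error only. The simulation therefore does not show how the rule behaves under variation between libraries or from amplification. The members and lists were chosen with earlier results of these data known. Genes named were all members, the called genes of each pathway list or its 2 most abundant, the most abundant gene of marker lists, Spib, Epcam, Siglecf and genes overlapping a member, and others are identified as named after their values were seen. Of the marker lists' most abundant genes, those of the tuft, enterocyte, enteroendocrine and myeloid lists are printed with their levels in both libraries. The alternatives were DESeq2 1.42.0 size factors, total counts, the upper quartile, no expression filter or a CPM minimum of 20, a prior count of 5, deposited TPM or FPKM (as log2(value + 1)) and other size rules.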

Additional observations from a re-analysis of the deposited data

How the results depend on the processing

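Scaling by DESeq2 size factors, total counts or the upper quartile shifted every log2 ratio by -0.012 to 0.007, changed the sign of 0 of 29 members and kept Abca1 called, at -2.64, -2.64 and -2.62. A prior count of 5 gave Abca1 -2.50. Fdps changed sign in deposited TPM and FPKM. Srebf2 had a log2 ratio of -0.32 in both units, outside its counting interval of -0.31 to -0.18. Members at least 1.2-fold lower numbered 3 with TPM or FPKM, against 2 in the main setting. They also numbered 3 with DESeq2 size factors, total counts or no expression filter. Abca1 does not reach a minimum of 20 CPM or of 5 TPM or FPKM, so that 0 members were called lower there. Members at least 1.5-fold lower numbered 1 under the upper quartile, where Srebf1 lies just inside the limit, and 1 with a CPM minimum of 20, TPM or FPKM; with the CPM minimum 1 was at least 1.2-fold lower. An interval bound of 1.5-fold called 2 members higher, Insig1 and Insig2. Over all genes, the higher and lower calls were 595 and 716 without the expression filter, 101 and 106 with a CPM minimum of 20, 425 and 419 by the point estimate and 598 and 590 at a bound of 1.5-fold, since each rule admits other genes, and 165 higher with FPKM, where the cause was not tested. Leaving out the 6 members whose counts are not whole or whose exons overlap another gene of the table, an alternative chosen after seeing the data, left 1 member at least 1.2-fold lower and 1 at least 1.5-fold lower, because Srebf1 is among the 6. No paired analysis was possible because there is 1 library per genotype.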
